A study of Mus musculus with 8 samples.

Results

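The genes Ern1, Atf6, Xbp1, Hspa5, Hsp90b1, Calr, Pdia4, Sdf2l1, Dnajb9 and Herpud1 of the unfolded protein response of the endoplasmic reticulum (ER) were followed in the hearts of mice without Tafazzin (Taz-KO) and their wild-type (WT) counterparts. They were chosen by gene symbol, and each of the 10 matched 1 of the 32285 genes counted. Their level was taken as the UMIs (unique molecular identifiers) of the gene per 1000000 UMIs, or CPM, over all nuclei of a cell type in 1 mouse. The mouse is thus the replicate. UMIs of genes of the mitochondrial genome were left out of these sums. Single nuclei were isolated by homogenization from cryopreserved whole hearts of 9-week-old male mice, 4 WT and 4 Taz-KO, and sequenced with droplet 3' chemistry, 1 library per mouse. The Taz-KO line is a model of Barth syndrome, an X-linked disease in which the mitochondrial lipid cardiolipin is not remodeled. No treatment is given for either group, both of which are named only by genotype, and how the allele was made is not given in the sources used here. Tafazzin acts in mitochondria, and the ER genes were set beside targets of ATF4, the transcription factor of the integrated stress response.

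In the unfolded protein response, misfolded protein in the ER lumen is sensed by membrane proteins, among them IRE1, encoded by Ern1, and ATF6. IRE1 splices the mRNA of Xbp1 into the form that encodes an active transcription factor, and ATF6 is cut to release one. Both factors raise the expression of ER chaperones, folding enzymes and components of ER-associated degradation (ERAD), through promoter motifs called ER stress elements. The remaining sensor, PERK, encoded by Eif2ak3, acts on translation and through ATF4. Activation of IRE1 and ATF6 takes place in the protein and in the splicing of 1 mRNA, neither of which a count of UMIs per gene measures.

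The promoters of these genes were compared with the exact letters of elements that ATF6, XBP1 and ATF4 are known to use. Elements and genes were both chosen from what is known of these responses. The shares below are thus descriptions and not a test. An element with other letters, or outside the bases searched, would be missed. RefSeq windows of GRCm38.p6, from 250 bases before to 50 after the start site, were found for 9 of the 10 genes, all but Atf6, and were searched on both strands for the ER stress element ERSE (CCAAT and CCACG with 9 bases between them), ERSE-II (ATTGG and CCACG with 1 base between them), the UPR element (TGACGTGG) and the ATF4 element CARE (TGATGCAA). An ERSE was present in 3 of the 9 genes, Hspa5, Hsp90b1 and Calr, against 0.137% of 27025 genes. It was present in 6 of 47 further genes of the response and 0 of 29 ATF4 targets, whose lists are described with the results. ERSE-II was present in 1 of them, Herpud1, against 0.0444% of all genes, and in 1 of the 47 further genes, Dnajb11. Herpud1 was also the 1 gene of the 9 with a CARE, which 1.03% of all genes and 8 of 29 ATF4 targets hold. The UPR element was found in none of the 9, in 4 of the 47 further genes (Txndc5, Ube2j1, Vcp and Sec24d) and in 0.714% of all genes. The 4 stretches with a match are given below 5' to 3' on the strand of the gene, with the matched letters and the spacer in capitals, and a match is a description of the letters alone. The first 3 hold ERSE.
Hspa5, chr2:34772020-34772048, plus strand: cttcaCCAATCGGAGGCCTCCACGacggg
Hsp90b1, chr10:86705528-86705661, minus strand: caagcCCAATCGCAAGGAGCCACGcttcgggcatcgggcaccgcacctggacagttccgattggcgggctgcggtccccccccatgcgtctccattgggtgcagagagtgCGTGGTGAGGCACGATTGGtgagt
Calr, chr8:84847070-84847098, minus strand: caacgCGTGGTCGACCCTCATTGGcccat
Herpud1, chr8:94386312-94386392, plus strand: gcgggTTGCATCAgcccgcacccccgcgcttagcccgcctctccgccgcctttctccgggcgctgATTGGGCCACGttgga
The ERSE of Hspa5 lies 65 to 47 bases before the RefSeq start site, which is within the first exon of the longer gene model of GENCODE vM21. Hsp90b1 has 2 copies in opposite orientation, and that of Calr is also inverted; neither stretch overlaps an annotated gene. In Herpud1 the CARE, on the opposite strand, stands from 112 to 105 and the ERSE-II from 52 to 42 bases before the start site, in a stretch that Gm15890 on the other strand spans. No motif was matched in the windows of Ern1, Xbp1, Pdia4, Dnajb9 and Sdf2l1, nor in that of the ATF4 target Asns. The lack of a match does not show that a gene has no such element.

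The libraries differed in depth, from 20025456 to 348080773 UMIs and from 3492 to 36308 barcodes, with the fewest barcodes in Taz-KO mice 4685 and 5301. Of 169193 barcodes, 3.92% had a barcode sequence that also occurred in another library. After filters and removal of 16231 likely doublets, 151264 nuclei were clustered, and 26940 were named cardiomyocyte-like, 37886 fibroblast-like, 21204 endothelial-like and 11882 macrophage-like, while 30.06% were left unnamed. The 6 deeper libraries, with 21190 barcodes or more, hold more barcodes than the nuclei that the methods give as loaded per heart, and whether each barcode called a nucleus here is one was not tested. Ttn and Ryr2, Pdgfra and Bicc1, Ptprb and Flt1, and F13a1 and Mrc1 marked the 4 types, which are called cardiomyocytes, fibroblasts, endothelial cells and macrophages from here on. The summed depth per mouse, unlike that of the libraries, leaves out genes of the mitochondrial genome. It was 4079223 to 84235966 UMIs in cardiomyocytes and 651278 to 14964271 in macrophages. Taz itself was lower in every Taz-KO mouse than in every WT mouse, at 28.1 to 41.9 against 48.6 to 54.3 CPM in cardiomyocytes, a log2 fold change of -0.65 (SE 0.17, n = 4 and 4, edgeR adjusted p = 0.0260). This call was lost in nuclei low in mitochondrial UMIs (-0.59, edgeR adjusted p = 0.0504) and without WT mouse 4686 (-0.66, edgeR adjusted p = 0.0584) or 5355 (-0.67, edgeR adjusted p = 0.0510). The RNA of cardiomyocytes was counted in nuclei of all types. The 6 cardiomyocyte markers summed to 38487 to 67331 CPM in cardiomyocytes and to 3077 to 14379 CPM in the 3 other types. Fibroblast markers in cardiomyocytes summed to 900 to 4412 CPM in WT and 195 to 3134 CPM in Taz-KO. In endothelial cells they summed to 2816 to 10303 CPM in WT and 790 to 11749 CPM in Taz-KO. Endothelial markers summed there to 3403 to 5470 and 3402 to 7641 CPM. In macrophages fibroblast markers summed to 2842 to 9885 and 603 to 15534 CPM, and macrophage markers to 5474 to 8083 and 3504 to 10404 CPM. What part fibroblast RNA had in the levels of these types was not tested. Of the 12 marker lists of other types, 3 did not overlap between the genotypes in cardiomyocytes. Smooth muscle markers summed to 72.8 to 245.4 CPM in Taz-KO and 18.8 to 63.0 CPM in WT, with 1 of 6 called higher. B lymphocyte markers summed to 58.7 to 116.9 CPM in Taz-KO and 127.3 to 184.0 CPM in WT, with 2 of 6 called lower. T lymphocyte markers summed to 2.60 to 8.11 and 8.78 to 13.5 CPM, with 2 called lower of the 5 that passed the filter on low counts. The first list was higher in Taz-KO, as Ern1 and Atf6 were, and the other two were lower, and their part in the results was not tested.

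In cardiomyocytes, Ern1 and Atf6, which encode 2 of the sensors, rose in Taz-KO mice, and the other 8 genes did not pass the test. The remaining sensor gene, Eif2ak3, is given with the further genes of the response, and no test compared sensors with chaperones. Ern1 was 303.8 ± 114 CPM in Taz-KO and 54.9 ± 1.42 CPM in WT (mean ± SD, n = 4 each). Thus 2 of the 10 genes were called by edgeR's quasi-likelihood test at a Benjamini-Hochberg adjusted p below 0.05, both higher, beside 15.7% of 18211 genes called in either direction and 8.93% called higher. With DESeq2 Herpud1 was the third, and 19.1% of all genes were called. The median log2 fold change of the 10 genes was 0.26, and that of all genes tested was 0.00. All 10 passed the filter on low counts in each of the 4 cell types. At an unadjusted p below 0.05, 5 of the 10 were higher (16.1% of all genes) and 0 were lower (12.8%).

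**Figure D1:**
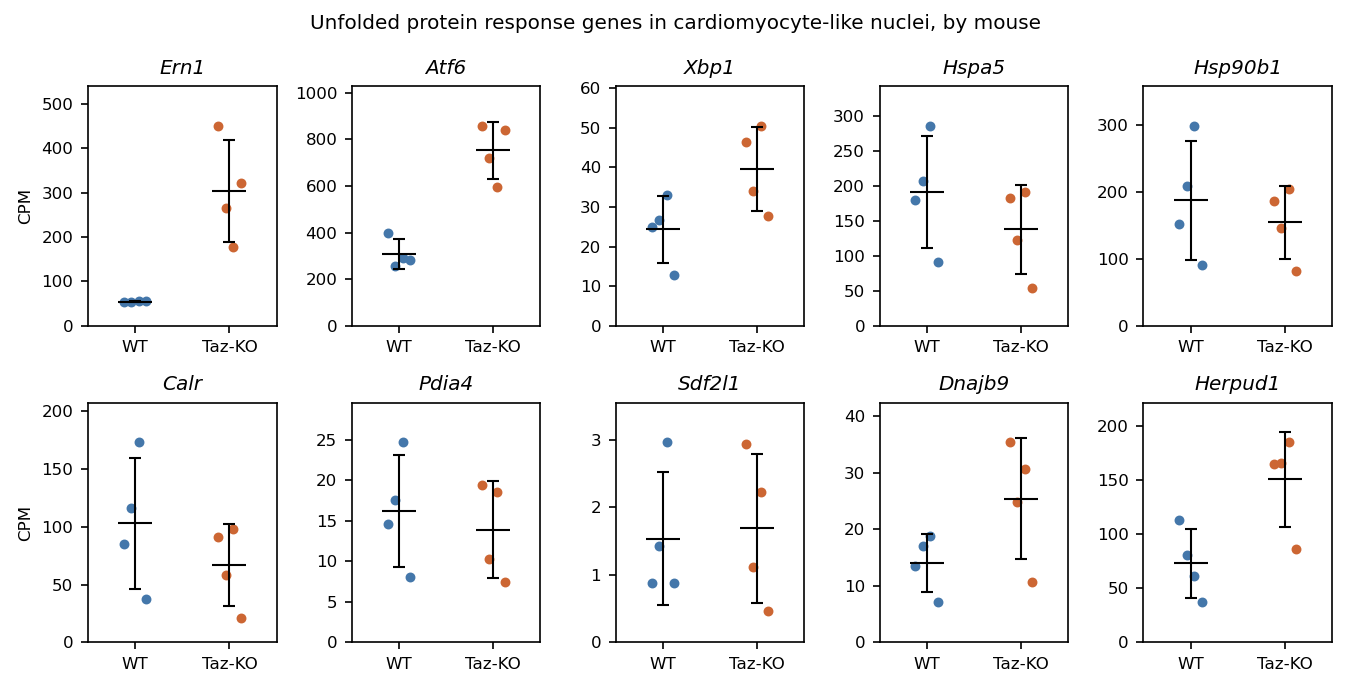
Levels of the 10 genes in cardiomyocytes, in CPM on a linear axis from 0, with 1 point per mouse and bars for the mean ± SD of 4 mice. The points of WT and Taz-KO mice are apart for Ern1 and Atf6 and overlap for the other 8 genes.

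Ern1, the kinase and endonuclease IRE1, was measured in cardiomyocytes of WT mice 4686, 4909, 5355 and 5356 at 54.4, 53.2, 56.2 and 56.0 CPM. In Taz-KO mice 4685, 4910, 5300 and 5301 it was measured at 450.1, 264.5, 178.4 and 322.3 CPM. The WT mice lay within 1.06-fold of each other, and the lowest Taz-KO mouse lay above all of them. The log2 fold change was 2.39 (SE 0.28, edgeR adjusted p = 3.20e-04), and it ranged from 1.84 to 2.60 over 17 alternatives, with an edgeR or DESeq2 adjusted p of 0.00196 at most. Every Taz-KO mouse was above every WT mouse in 2 of the 10 genes, Ern1 and Atf6, and in 14.8% of all genes tested.

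Atf6, the sensor that is itself a transcription factor, stood at 400.1, 257.0, 289.8 and 284.3 CPM in WT cardiomyocytes, in the same order of mice. In Taz-KO it stood at 856.8, 719.1, 593.3 and 839.7 CPM. The groups did not overlap, and the WT mouse nearest to Taz-KO was 4686. The log2 fold change was 1.21 (SE 0.24, edgeR adjusted p = 0.00658). Without Taz-KO mice 4685 and 5301 together, the libraries with the fewest barcodes, it was 0.90 and no longer passed (edgeR adjusted p = 0.0660), while Ern1 passed. Both genes are long: Ern1 spans 93.2 kb of chromosome 11 (106394650 to 106487852, minus strand) and Atf6 163.1 kb of chromosome 1 (170704674 to 170867771, minus strand; GRCm38), and the other 8 genes span 2.2 to 17.3 kb. The small genes Gm23523 and Gm25235 lie within Atf6 on its strand. Reads in introns were counted, and the part of gene length in the change was not tested. Asns and Mthfd2, the ATF4 targets set beside them, span 18.1 and 20.2 kb.

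The rise of Ern1 and Atf6 was seen within the clusters that made up the cardiomyocytes. These clusters did not have the same shares in the 2 genotypes. The largest held 40.31 to 50.48% of the cardiomyocytes of a WT mouse and 24.08 to 26.73% of those of a Taz-KO mouse, and another, cluster 11, held 4.348 to 6.069% and 21.75 to 29.13%. In the largest cluster Ern1 was 271.5 ± 147 CPM in Taz-KO and 57.2 ± 1.59 CPM in WT, and in cluster 11 it was 403.8 ± 121 and 66.9 ± 9.26 CPM (n = 4 each). Ern1 did not overlap between genotypes in 4 of the 5 clusters and did in the smallest, cluster 23. There it was 44.8 to 110.0 CPM in Taz-KO (83.4 ± 28.4) and 35.3 to 64.7 CPM in WT (47.8 ± 12.6). Mouse 4685 had 7 nuclei there, while Taz-KO mice 4910 and 5300, with 397 and 133 nuclei, were at 110.0 and 98.0 CPM. Atf6 did not overlap in any of the 5 clusters. Of the other genes, Xbp1 did not overlap in clusters 10 and 11, Herpud1 in cluster 11 and Dnajb9 in cluster 10, all higher in Taz-KO. The share of all genes without overlap within a cluster was not computed. Fitted on the largest cluster alone, Ern1 and Atf6 were called.

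Xbp1 encodes the transcription factor that IRE1 activates, and the counts hold its spliced and unspliced mRNA together. WT cardiomyocytes had 25.1, 26.6, 33.1 and 12.8 CPM and Taz-KO cardiomyocytes 46.3, 34.2, 50.5 and 27.7 CPM. The highest WT mouse, 5355, was above the lowest Taz-KO mouse, 5301. On the log2 scale the fold change was 0.59 (SE 0.23) and did not pass (edgeR adjusted p = 0.115), and over 17 alternatives it was 0.40 to 0.74 with none past the threshold.

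Hspa5 encodes BiP, the ER chaperone that also holds the sensors inactive, and is the usual readout of the response. It was 180.2, 207.1, 285.9 and 92.0 CPM in WT and 183.6, 122.8, 191.0 and 54.6 CPM in Taz-KO cardiomyocytes. The groups overlapped over most of their range. The log2 fold change was -0.60 (SE 0.36, edgeR adjusted p = 0.314), and it was negative under all 17 alternatives.

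A pair of further chaperones overlapped between the genotypes in the same way. Hsp90b1, the ER paralog of HSP90, was 151.8, 209.1, 298.6 and 90.7 CPM in WT and 186.3, 145.7, 205.2 and 82.0 CPM in Taz-KO cardiomyocytes. Its log2 fold change was -0.39 (SE 0.31, edgeR adjusted p = 0.478). Annotated genes Gm15344 and Gm25745 overlap Hsp90b1 on its strand, so its counts may not be wholly its own. Calr, the calcium-binding lectin chaperone calreticulin, was 84.9, 116.5, 172.6 and 37.9 CPM in WT and 91.4, 57.9, 97.5 and 21.2 CPM in Taz-KO. Its log2 fold change was -0.75 (SE 0.48, edgeR adjusted p = 0.357), with overlapping groups for both genes.

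Of the remaining folding genes, Pdia4, a protein disulfide isomerase, was 8.02 to 24.7 CPM in WT and 7.45 to 19.4 CPM in Taz-KO cardiomyocytes, a log2 fold change of -0.35 (SE 0.32, edgeR adjusted p = 0.530). Sdf2l1, a component of the ER chaperone complex, had the fewest UMIs, at 0.884 to 2.96 CPM in WT and 0.473 to 2.94 CPM in Taz-KO. Its 264 and 181 UMIs over all WT and all Taz-KO cardiomyocytes limit what can be seen. Dnajb9, a co-chaperone of BiP and a target of XBP1, was higher in 3 of the 4 Taz-KO mice than in any WT mouse, at 35.3, 24.9, 30.6 and 10.8 CPM against 13.5, 17.01, 18.8 and 7.19 CPM. Its log2 fold change of 0.73 (SE 0.32) did not pass (edgeR adjusted p = 0.160), and without the lowest Taz-KO mouse, 5301, it was 0.93 and passed (edgeR adjusted p = 0.0347).

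Herpud1, an ER membrane protein of ERAD, was the nearest to the threshold. It was 112.8, 81.0, 61.3 and 37.0 CPM in WT cardiomyocytes, and 164.7, 166.2, 184.7 and 86.8 CPM in Taz-KO. Mouse 5301 alone lay within the range of WT. The log2 fold change was 0.93 (SE 0.30, edgeR adjusted p = 0.0623, unadjusted p = 0.0108). It passed with DESeq2 (0.91, adjusted p = 0.0248), in the nuclei with a low mitochondrial share (0.95, edgeR adjusted p = 0.0459), without Taz-KO mouse 5301 (1.07, edgeR adjusted p = 0.0343) and without WT mouse 4686 (1.21, edgeR adjusted p = 0.0140). Gm15890 lies across Herpud1 on the opposite strand. The promoter with both an ERSE-II and a CARE, shown above, is that of this gene.

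The chaperone levels differed widely between libraries of 1 genotype. Across 5 folding genes (Hspa5, Hsp90b1, Calr, Pdia4 and Sdf2l1) and 4 cell types, the lowest level was in Taz-KO mouse 5301 in 18 of the 20 combinations and in WT mouse 5356 in the rest, and the highest was in WT mouse 5355 or Taz-KO mouse 4685 in all 20. Hspa5 in fibroblasts was 329.1, 374.0, 565.9 and 157.6 CPM in WT and 505.0, 279.5, 359.7 and 113.5 CPM in Taz-KO. Within WT, the highest mouse was 3.11-fold above the lowest for Hspa5 and 4.56-fold for Calr in cardiomyocytes, against 1.06-fold for Ern1 and 1.56-fold for Atf6. The mitochondrial share of UMIs was 1.57% in library 5301 and 7.01 to 23.7% in the 7 others, and its part in the chaperone levels was not tested. Fibroblast markers in macrophages were also lowest in mice 5301 and 5356, at 603 and 2842 CPM, and highest in 4685, at 15534 CPM. For these markers WT mouse 5355, at 8020 CPM, was below WT mouse 4909, at 9885 CPM. The part of such RNA in the chaperone levels was not tested.

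**Figure D2:**
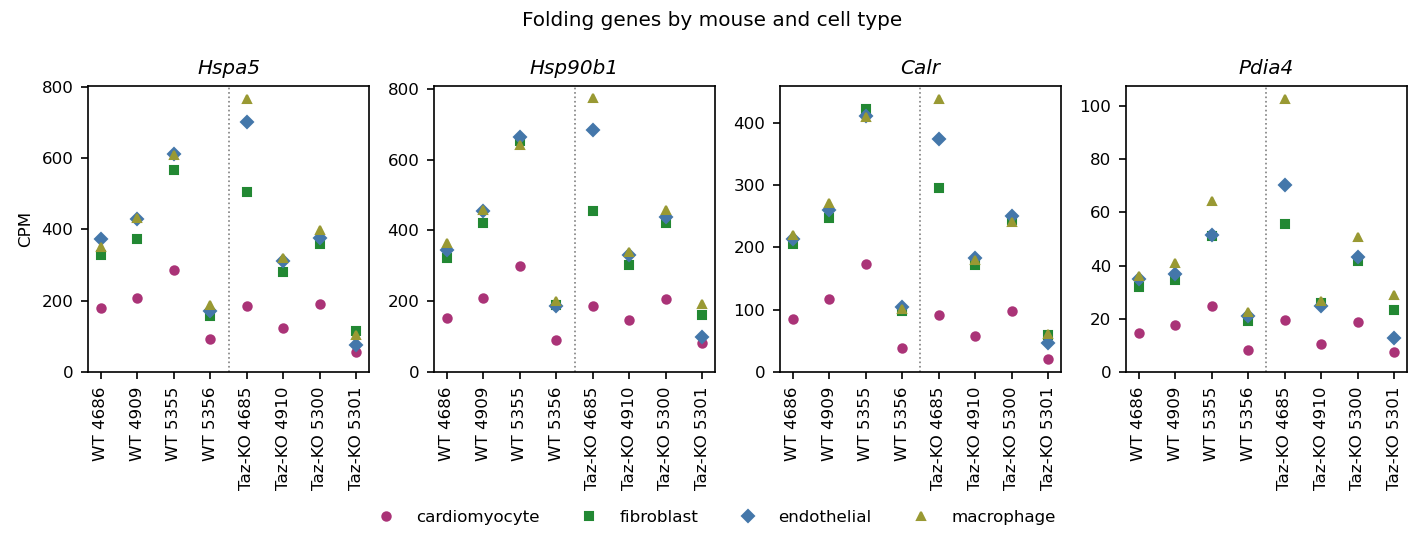
Levels of Hspa5, Hsp90b1, Calr and Pdia4, in CPM on linear axes from 0, in each of the 8 mice, with 1 symbol per cell type. WT mouse 5356 and Taz-KO mouse 5301 are low and WT mouse 5355 and Taz-KO mouse 4685 are high in most cell types, and cardiomyocytes lie lowest in every mouse for Hspa5, Hsp90b1 and Calr.

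In fibroblasts, endothelial cells and macrophages, 0 of the 10 genes were called by edgeR or by DESeq2. All fitted changes there were below 2-fold. In simulated data edgeR recovered few or no changes of 2-fold in these 3 types. The lack of a call thus does not show that these genes did not differ. The shares of all genes called by edgeR were 0.341%, 0.454% and 0.243%, and by DESeq2 1.96%, 1.7% and 0.937%. At an unadjusted p below 0.05 the count was 1 in fibroblasts (Ern1), 2 in endothelial cells (Ern1 and Atf6) and 0 in macrophages, all higher, beside 6.58%, 5.39% and 3.05% of all genes higher.

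Ern1 in fibroblasts was 58.0, 53.7, 58.5 and 72.6 CPM in WT and 89.0, 85.1, 71.8 and 85.3 CPM in Taz-KO. In endothelial cells it was 46.9, 48.0, 57.2 and 57.2 CPM in WT and 85.9, 77.1, 70.6 and 77.4 CPM in Taz-KO. The groups overlapped narrowly in fibroblasts and not in endothelial cells, with log2 fold changes of 0.37 (SE 0.14, edgeR adjusted p = 0.418) and 0.50 (SE 0.14, edgeR adjusted p = 0.269). In macrophages Ern1 was 85.7, 78.7, 87.8 and 109.6 CPM in WT and 116.7, 109.1, 90.8 and 133.5 CPM in Taz-KO, with a log2 fold change of 0.25 (SE 0.21, edgeR adjusted p = 1.00). With 0.2 of the UMIs of each sum subtracted as ambient RNA with the profile of the library, the 3 values turned to -0.15, -0.04 and -0.13, and in cardiomyocytes Ern1 was still called. That profile sums all barcodes of a library, cardiomyocytes included. In it Ern1 was 119.8 to 222.8 CPM in Taz-KO and 58.1 to 66.3 CPM in WT. The subtraction thus took more Ern1 per UMI from Taz-KO than from WT sums, and the turned signs do not show a fall.

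Atf6 was 144.7, 135.9, 135.2 and 156.6 CPM in WT fibroblasts and 164.3, 207.7, 188.4 and 157.3 CPM in Taz-KO fibroblasts. The 2 groups were apart by less than 1 CPM at their nearest mice, and the log2 fold change was 0.25 (SE 0.15, edgeR adjusted p = 0.692). In endothelial cells it was 143.0 to 160.7 CPM in WT and 182.0 to 229.7 CPM in Taz-KO, with a log2 fold change of 0.38 (SE 0.17, edgeR adjusted p = 0.589), and in macrophages 230.9 to 350.8 and 278.9 to 325.4 CPM, a log2 fold change of 0.12. With the same subtraction the 3 values were -0.29, -0.0014 and -0.18. The library profiles held Atf6 at 372.9 to 576.8 CPM in Taz-KO and 194.5 to 253.0 CPM in WT, so the same limit holds. Every Taz-KO mouse was above every WT mouse for 1 gene in fibroblasts (4.43% of all genes), 2 in endothelial cells (3.54%) and 0 in macrophages (2.2%).

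**Figure D3:**
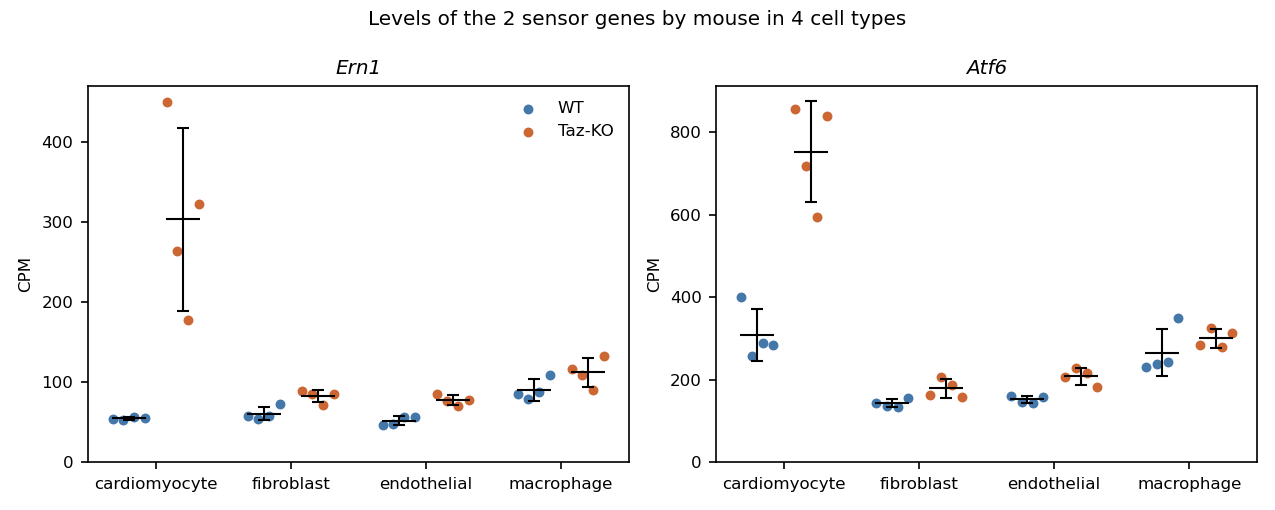
Levels of Ern1 and Atf6 in 4 cell types, in CPM on linear axes from 0, with 1 point per mouse and bars for the mean ± SD of 4 mice. In cardiomyocytes Taz-KO mice stand at 178.4 to 450.1 CPM for Ern1 and 593.3 to 856.8 CPM for Atf6, above every mouse of the 3 other types.

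The change of Ern1 was larger in cardiomyocytes than in each of the 3 other types. In fits of both cell types with the mouse as a block, the log2 fold change of Ern1 in cardiomyocytes exceeded that in fibroblasts by 1.94 (SE 0.22, edgeR adjusted p = 7.83e-04), that in endothelial cells by 1.80 (SE 0.24, edgeR adjusted p = 0.00206) and that in macrophages by 1.99 (SE 0.24, edgeR adjusted p = 0.00187). It was called in all 3 under every other processing tried at the same threshold. For Atf6 the difference was called against fibroblasts alone, by 0.99 (SE 0.24, edgeR adjusted p = 0.0405), and was 0.84 (SE 0.24, edgeR adjusted p = 0.0992) against endothelial cells and 1.03 (SE 0.27, edgeR adjusted p = 0.108) against macrophages. The call against fibroblasts was lost with other size factors, without the filter on low counts, with ambient RNA subtracted, in the largest cardiomyocyte cluster, without mice 4685 and 5301, and without 6 of the 8 mice when 1 was left out. The counts of called genes were 2, 1 and 1 of the 10, beside 4.31%, 2.46% and 1.1% of all genes. Herpud1 and Xbp1 exceeded fibroblasts by 0.49 and 0.36 without passing (edgeR adjusted p = 0.109 and 0.104).

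The remaining 8 genes spread widely between mice in the 3 other types. Herpud1 had log2 fold changes of 0.55, 0.72 and 0.89 in these types (fibroblasts first, macrophages last), and Dnajb9 of 0.59, 0.69 and 0.87, with SEs of 0.34 to 0.50. For both, Taz-KO mouse 5301 lay inside the WT range or below it, and the 3 other Taz-KO mice lay above it, as with Dnajb9 in macrophages at 76.8, 43.6 and 47.1 CPM against 9.31 CPM in 5301 and 9.95 to 29.7 CPM in WT. Xbp1 had 0.30, 0.46 and 0.50, with its highest level in Taz-KO mouse 4685 in each of these types. Hspa5, Hsp90b1 and Calr lay between -0.44 and 0.01, and Pdia4 between -0.02 and 0.23. Sdf2l1 had 0 UMIs in fibroblasts and in endothelial cells of mouse 5301.

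**Figure D4:**
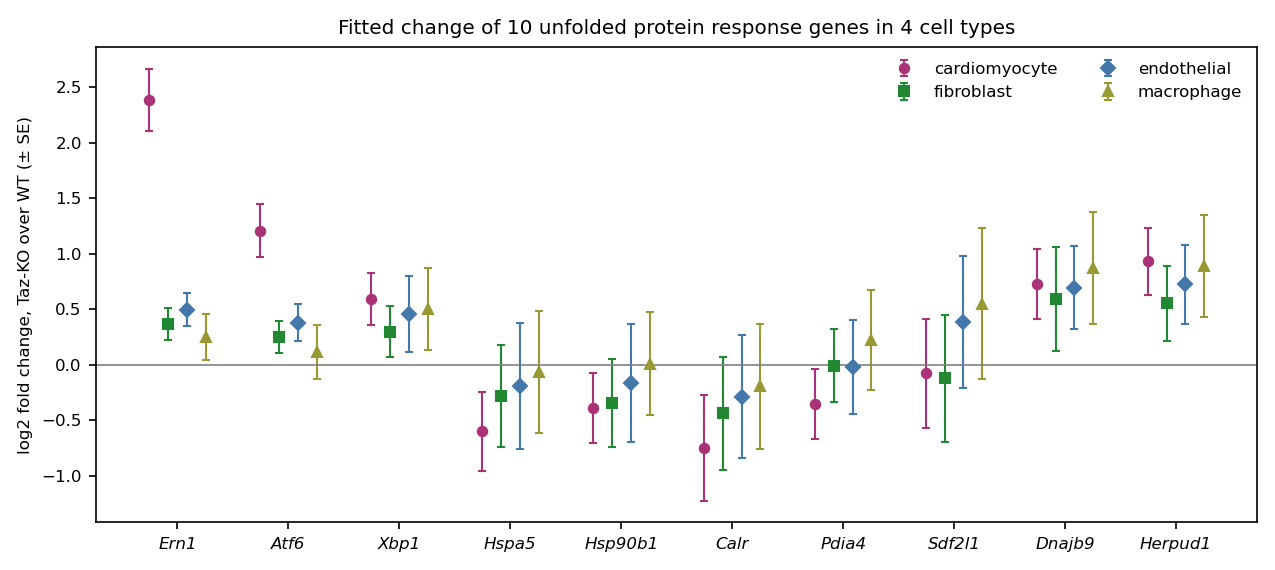
Fitted log2 fold changes of the 10 genes, Taz-KO over WT, in 4 cell types, with bars for the standard error and a line at 0. Ern1 at 2.39 and Atf6 at 1.21 in cardiomyocytes stand apart from the same genes in other types, while Herpud1 and Dnajb9 are above 0 in all 4, at 0.55 to 0.93 and 0.59 to 0.87.

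The order of the cell types in WT hearts was not the same for each of the genes. Ambient RNA and RNA of other cell types were not subtracted from these levels, and their part in the order was not tested. Hspa5 was lowest in cardiomyocytes, at a mean of 191.3 CPM, below fibroblasts (356.6 CPM), macrophages (395.4 CPM) and endothelial cells (395.9 CPM), and cardiomyocytes were below fibroblasts in all 4 mice although the ranges over mice overlapped. The top 2 types did not differ beyond their spread. Hsp90b1, Calr, Pdia4, Sdf2l1 and Dnajb9 were also lowest in cardiomyocytes in 4 of 4 mice. Xbp1 was 24.4 CPM in cardiomyocytes and 58.5 to 69.9 CPM in the 3 other types, with no overlap between cardiomyocytes and endothelial cells. Atf6 was highest in cardiomyocytes, at 307.8 CPM, with a range that overlapped that of macrophages (265.7 CPM) and not that of endothelial cells (152.5 CPM). Ern1 was highest in macrophages, at 90.5 CPM, above fibroblasts (60.7 CPM) without overlap, and the ranges of fibroblasts, cardiomyocytes (54.9 CPM) and endothelial cells (52.3 CPM) overlapped in that order.

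Further genes of the same response were measured in the same cardiomyocytes. Of 62 further genes of folding, ERAD, sensing, and translocation and export, 61 passed the filter, 4 were called higher, beside 8.93% of all genes tested, and 0 lower, with a median log2 fold change of 0.11. By role, 1 of 17 folding genes rose, Ero1l, the oxidase that recharges disulfide isomerases and also a gene induced by hypoxia and by CHOP. It was 33.1 ± 3.27 CPM in WT and 95.5 ± 14.4 CPM in Taz-KO, with a log2 fold change of 1.42 (SE 0.16, edgeR adjusted p = 2.84e-04). In ERAD 1 of 17 rose, Derl1, a part of the retrotranslocation channel, by 0.70 (SE 0.16, edgeR adjusted p = 0.0151). Of 12 sensors and regulators 1 rose, Eif2ak3, the sensor PERK, from 36.6 ± 4.5 to 60.6 ± 9.73 CPM, or 0.64 (SE 0.18, edgeR adjusted p = 0.0361). Of 15 genes of translocation and export 1 rose, Sec23b, a coat protein of vesicles that leave the ER, by 0.63 (SE 0.17, edgeR adjusted p = 0.0283). In the 3 other cell types, where 0.243 to 0.454% of all genes were called, 0 of the 61 were called by edgeR, with medians of 0.08 to 0.13.

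ATF4 targets rose in the same cardiomyocytes. Of 34 genes, 27 were called higher, beside 8.93% of all genes tested, and 0 lower, with a median log2 fold change of 2.67 beside 0.00 for all genes. This list was chosen with earlier results of these data known, so its count and median are descriptions and not an independent test. Asns, asparagine synthetase, was 0.560, 1.04, 0.950 and 0.172 CPM in WT and 47.1, 30.1, 53.9 and 31.4 CPM in Taz-KO, with a log2 fold change of 5.78 (SE 0.41, edgeR adjusted p = 2.01e-05). Mthfd2, a mitochondrial enzyme of folate metabolism, was 5.61 to 9.81 CPM in WT and 44.9 to 69.7 CPM in Taz-KO, with a log2 fold change of 2.91 (SE 0.19, edgeR adjusted p = 6.75e-06). Trib3, a pseudokinase induced by stress, rose by 5.67 and Gdf15, a secreted stress hormone, by 5.57 on the log2 scale (edgeR adjusted p = 3.87e-06 and 3.23e-05). Adm2 and Fgf21, which encode hormones, had 0 and 3 UMIs in all WT cardiomyocytes and 462 and 703 in Taz-KO. Adm2 was thus higher by at least 213-fold, taking 3 counts over all WT cardiomyocytes as the floor. Both genes passed the filter on low counts through the Taz-KO sums alone, and both are among the 27 called. With both set to their ratio against a floor of 3 counts, the median of the list was still 2.67.

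**Figure D5:**
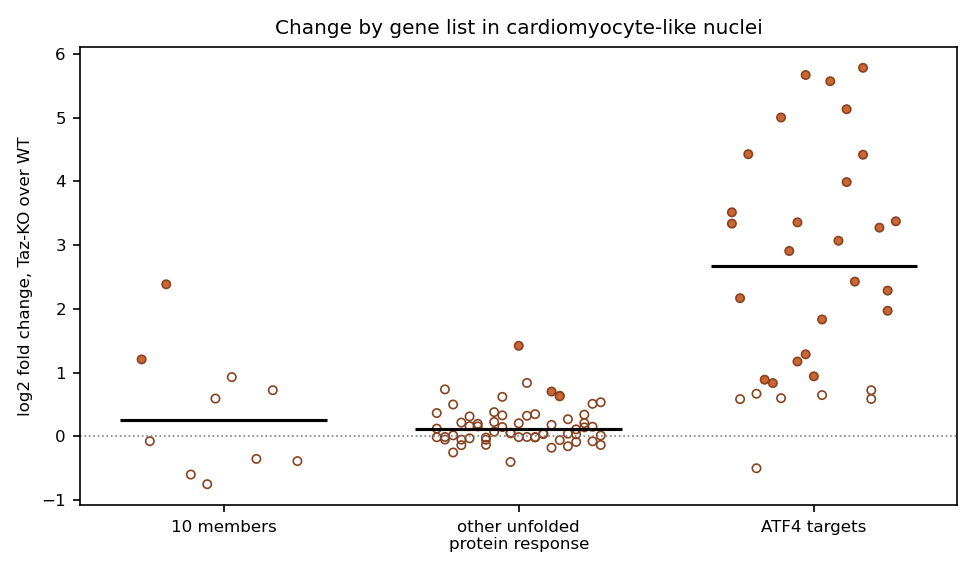
Fitted log2 fold changes in cardiomyocytes for the 10 genes, 61 other genes of the unfolded protein response and the ATF4 targets, with filled circles for adjusted p below 0.05, black lines for the medians of all genes of a list (0.26, 0.11 and 2.67) and a dotted line at 0. Adm2 and Fgf21, with 3 UMIs or fewer in WT, are not drawn. The lists were chosen with earlier results of these data known.

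Asns and Mthfd2 were also called in each of the 3 other cell types, where none of the 10 ER genes, all with changes below 2-fold, was. Their log2 fold changes were 3.71 and 2.45 in fibroblasts, 3.27 and 3.05 in endothelial cells and 5.04 and 2.99 in macrophages. Asns in macrophages was 0.73 to 2.13 CPM in WT and 4.14 to 63.0 CPM in Taz-KO. It passed the filter on low counts there through the Taz-KO sums alone. Unlike for the 10 genes, it was not examined whether the calls of Asns and Mthfd2 held with ambient RNA subtracted or with mice left out. In these 3 types, 6 of 32, 10 of 33 and 8 of 32 ATF4 targets were called higher, beside 0.341%, 0.454% and 0.243% of all genes called in either direction. How many of these targets passed the filter through the Taz-KO sums alone was not examined. The log2 fold change of Mthfd2 in cardiomyocytes minus that in each other type was -0.07 to 0.57 (edgeR adjusted p = 0.473 to 0.979). For Asns it was 2.55 against endothelial cells (SE 0.49, edgeR adjusted p = 0.0226) and did not pass against fibroblasts (2.13, edgeR adjusted p = 0.0605) or macrophages (0.82, edgeR adjusted p = 0.716).

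In the further cell types that were named, the picture was sparse. In pericytes, with 8 mice, 0 of the 10 genes were called by edgeR (0.11% of all genes), and in lymphatic endothelial cells, with 7 mice since 1 had under 10 nuclei, 0 of 9 that passed the filter (0.112%). In adipocytes, also with 7 mice, Dnajb9 was called, at 8.45 to 20.97 CPM in WT and 13.9 to 59.2 CPM over the 4 Taz-KO sums, a log2 fold change of 1.53 (SE 0.38, edgeR adjusted p = 0.0437) beside 4.57% of all genes. These levels rest on 2 to 43 UMIs per WT mouse and 2 to 76 per Taz-KO mouse, and the ranges overlapped through Taz-KO mouse 5301.

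The genes whose levels ran most like Ern1, Atf6 and Hspa5 were ranked by Pearson's correlation of log2 CPM over 32 sums (8 mice in 4 cell types), among 7925 genes. The sums of a mouse share a library and those of a type share its nuclei, so these are descriptions. Hspa5 ran closest with Calr (r = 0.990), Hsp90b1 (0.978) and Actb (0.968). Ern1 ran with Atp6v1h (0.933), Tmem189 (0.916) and Vezt (0.914), and Atf6 with Prune2 (0.939), Kctd16 (0.936) and Dmxl2 (0.914). Neither Ern1 nor Atf6 had a chaperone of the ER among its closest 3.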

How the data were processed

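Single-nucleus RNA of whole hearts was measured in 8 libraries, 1 per mouse. The authors deposited UMI counts for each barcode and gene from Cell Ranger 6.0.1, run on the mm10 build with reads in introns included, per their methods and processing notes; their later corrections for ambient RNA and doublets are not in these counts. The largest library held 348080773 UMIs and the smallest 20025456, so values of mice 4685 and 5301 carry the most counting error.

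The minimum for a barcode was 800 UMIs and 250 genes. Doublets were scored per mouse against artificial doublets and the 16231 highest (9.69%) were removed. Nuclei were normalized without mitochondrial genes, and 15 principal components of 2000 variable genes were corrected for the mouse by an own implementation of the Harmony algorithm and clustered (Leiden, resolution 0.9; Python 3.11.15, python-igraph 0.11.9) into 37 clusters. Clusters were named from 6 markers per type, by a rule set after their marker levels were seen. For each symbol with several rows the first was used.

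Sums of counts over the nuclei of a type in a mouse were fitted over all genes with edgeR 4.0.16 (TMM, filterByExpr, quasi-likelihood F test, Benjamini-Hochberg adjustment; called at an adjusted p below 0.05). Standard errors are the log2 fold change over the root of its F statistic. Differences between cell types were tested as an interaction with the mouse as a block, since both sums come from the same animal. The tests in the 4 main cell types and of their differences were tested on simulated data, and those in the further types were not. Most changes of 4-fold were recovered there, from 64.3% for cardiomyocytes against fibroblasts to 88.1% within cardiomyocytes. False calls in these fits numbered 7 to 13, the most for cardiomyocytes against fibroblasts. Changes of 2-fold were simulated within cell types alone, where few or none were recovered. In cardiomyocytes that simulation changed 194 of 17958 genes, far fewer than the 15.7% called in the data, so recovery in the data may differ. P-values set the difference between genotypes against the spread between these mice, moderated over all genes. The mouse numbers of WT and Taz-KO are different animals and were not paired. The alternatives were DESeq2 1.42.0, other size factors, no filter, typing of single nuclei, subtraction of an ambient share, nuclei low in mitochondrial UMIs, the largest cardiomyocyte cluster, stricter thresholds and leaving out mice. Named are the 10 genes, Taz, Asns and Mthfd2, at most 5 called genes with the largest change per list, and the 3 genes most like Ern1, Atf6 and Hspa5. Further genes of the response with an ERSE-II or a UPR element are also named, called or not. CPM of at least 20 on average and a pseudocount of 1 were used for likeness. The genes and lists were chosen with earlier results of these data known. Positions of genes come from GENCODE vM21 (GRCm38).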

Additional observations from a re-analysis of the deposited data

Results flagged for a closer look

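In 80 groups of 4 mice (10 genes, 4 cell types, 2 genotypes), 3 held a mouse set apart by more than Dixon's 95% critical value for 4 samples; chance flags about 1 group in 20. Herpud1 in Taz-KO mouse 5301 was 64.7 CPM in fibroblasts, with the 3 other Taz-KO mice at 155.5 to 169.9 CPM, and 73.2 CPM in endothelial cells, with the others at 176.6 to 195.9 CPM. Atf6 in macrophages of WT mouse 5356 was 350.8 CPM, with the other WT mice at 230.9 to 242.2 CPM.

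The genotype change differed between cell types for 3 genes by the interaction test. The log2 fold change of Ern1 in cardiomyocytes exceeded that in fibroblasts by 1.94, in endothelial cells by 1.80 and in macrophages by 1.99 (edgeR adjusted p = 7.83e-04, 0.00206 and 0.00187). That of Atf6 exceeded fibroblasts by 0.99 (edgeR adjusted p = 0.0405), and that of Asns exceeded endothelial cells by 2.55 (edgeR adjusted p = 0.0226). Ern1 was higher in 4 of 4 Taz-KO mice than in any WT mouse in cardiomyocytes, and so was Atf6.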

How the results depend on the processing

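Ern1 and Atf6 were called in cardiomyocytes by edgeR or DESeq2 at an adjusted p below 0.05 under every alternative but the omission of Taz-KO mice 4685 and 5301, where the count was 1 (Ern1), and the thresholds of the study (adjusted p below 0.001 and a log2 fold change beyond 0.58), where it was 1 (Ern1). Leaving out 1 mouse gave counts of 2 to 4, with Herpud1 added without WT mouse 4686, and Herpud1 and Dnajb9 without Taz-KO mouse 5301. In the 3 other types the count was 0 under each alternative. For the difference from fibroblasts the count of 2 became 4 with DESeq2 (Calr and Xbp1 added) and 1 (Ern1) with other size factors, without the filter, with ambient RNA subtracted, in the largest cardiomyocyte cluster, without mice 4685 and 5301 and at the study's thresholds, and was 1 to 2 with 1 mouse left out (Atf6 was lost without 4685, 4909, 4910, 5301, 5355 or 5356). For endothelial cells and for macrophages the count of 1 became 2 with DESeq2 (Atf6) and 0 at the study's thresholds. Taz in cardiomyocytes was -0.59 and no longer called in nuclei low in mitochondrial UMIs (edgeR adjusted p = 0.0504), -0.65 and not called at the study's thresholds, and -0.73 to -0.51 with 1 mouse left out (not called without WT 4686 or 5355).

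Signs turned for genes that were not called. With ambient RNA subtracted, Ern1 was -0.15, -0.038 and -0.13 and Atf6 -0.29, -0.0014 and -0.18 in fibroblasts, endothelial cells and macrophages. With nuclei typed one by one, Pdia4 and Sdf2l1 in fibroblasts were 0.041 and 0.19, Sdf2l1 in endothelial cells -0.16 and Hspa5 in macrophages 0.091. Sdf2l1 in fibroblasts was 0.20 in nuclei low in mitochondrial UMIs and 0.068 without mice 4685 and 5301, and without these mice Hsp90b1 and Pdia4 in macrophages were -0.14 and -0.17. Hsp90b1 in macrophages was -0.046 without the filter. With 1 mouse left out, the ranges that crossed 0 were, in cardiomyocytes, Sdf2l1 from -0.30 to 0.39, in fibroblasts, Hspa5 from -0.59 to 0.017, Pdia4 from -0.24 to 0.24, Sdf2l1 from -0.64 to 0.31, in endothelial cells, Hspa5 from -0.70 to 0.14, Hsp90b1 from -0.58 to 0.14, Pdia4 from -0.42 to 0.20, Sdf2l1 from -0.073 to 0.77, Calr from -0.69 to 0.050, in macrophages, Hspa5 from -0.59 to 0.22, Hsp90b1 from -0.40 to 0.28, Pdia4 from -0.26 to 0.52, Calr from -0.69 to 0.13.
The causes of these shifts were not tested. No paired analysis was run, since the labels do not say which WT and Taz-KO mice, if any, belong together. Of the values of the 10 genes in the 4 cell types under the alternatives, 597 kept their direction and side of the threshold, 45 turned sign, 5 passed the threshold anew and 2 no longer passed it. Depth limits Sdf2l1 most.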
